A study of Mus musculus with 13 samples.

Results

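Norepinephrine synthesis, storage, reuptake and breakdown were examined through 8 genes, *Th*, *Ddc*, *Dbh*, *Slc18a2*, *Cyb561*, *Slc6a2*, *Maoa* and *Maob*, chosen by gene symbol. All 8 were present among the 12009 genes of the deposited count table. The libraries came from *Slc6a2*-*eGFP*/*Rpl10a* mice, hemizygous on a C57BL/6 background, in which an EGFP-tagged ribosomal protein is expressed from a bacterial artificial chromosome carrying *Slc6a2* control sequence, so that pulldown of the tag (translating ribosome affinity purification, TRAP) retrieves mRNA bound to ribosomes of noradrenergic neurons. The neurotoxin DSP-4 (50 mg/kg, i.p.) or saline vehicle was injected on days 1 and 7, and hindbrains without cerebellum were taken on day 14 from mice aged 6 to 8 months, male and female, with 2 mice of the same sex and treatment pooled per replicate. There were 6 DSP-4 TRAP libraries (replicates 1, 2, 3, 7, 8 and 9), 3 saline TRAP libraries (4, 6 and 12), 2 DSP-4 input libraries of whole hindbrain homogenate (2 and 7) and 2 saline input libraries (5 and 12). A further saline TRAP sample that the methods describe as kept was not analysed here.

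Norepinephrine is made from tyrosine by tyrosine hydroxylase (*Th*), which makes L-DOPA in the rate-limiting step, aromatic L-amino acid decarboxylase (*Ddc*), which makes dopamine, and dopamine β-hydroxylase (*Dbh*), which works inside the vesicle. The vesicular monoamine transporter VMAT2 (*Slc18a2*) loads the vesicle, and cytochrome b561 (*Cyb561*) carries electrons across its membrane to regenerate the ascorbate that *Dbh* consumes. The norepinephrine transporter NET (*Slc6a2*) takes released transmitter back into the neuron, where monoamine oxidases A and B (*Maoa*, *Maob*) of the outer mitochondrial membrane break it down. *Th* is shared with dopamine neurons, *Ddc* and *Slc18a2* with dopamine and serotonin neurons, *Maob* is best known from serotonin neurons and astrocytes, and *Dbh* and *Slc6a2* are the pair that sets noradrenergic neurons apart in the hindbrain. DSP-4 enters neurons through NET.

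Each library held 17491357 to 29199550 counts, and mitochondrially encoded genes took 0.530% to 2.64% of them in TRAP and 4.66% to 6.77% in input. In 2 DSP-4 TRAP libraries, replicates 2 and 3, 20 and 22 genes were at 0 counts, against 0 to 6 in the others, and several results below are also given without them. The labelled cell type was checked with 6 measured noradrenergic marker genes outside the 8. In TRAP against input, 5 were higher in DSP-4 mice at a false discovery rate (FDR) of 0.1, against 27.3% of all genes. In saline mice 4 were higher, against 19.5% of all genes. *Ebf3* was called in neither treatment, with log2 fold changes of 0.22 in DSP-4 mice and 0.08 in saline mice. *Gata3* was not called in saline mice (0.47, edgeR FDR 0.302). The summed level of the 6 markers was 118 to 170 CPM in DSP-4 TRAP and 192 to 234 CPM in saline TRAP, and *Gal* was the one called lower with DSP-4. CPM values here are counts scaled to library size with TMM factors. In bulk RNA of this kind, fewer noradrenergic neurons and less of a transcript per neuron cannot be told apart. The paper reports no difference between treatments in the number of neurons of the locus coeruleus. They were counted in other mice on the same doses, and are a part of the noradrenergic neurons of the hindbrain. How much tagged ribosome each pulldown recovered was not measured here.

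Start regions of *Th*, *Slc18a2* and *Dbh*, which stand for synthesis, storage and the noradrenergic step, are shown because their TRAP levels with DSP-4 were at unlike shares of the saline level. RefSeq sequences on GRCm38.p6 were matched for 5 of the 8 genes, in 6 windows, each from 250 bases before to 50 bases after an annotated start site. Motifs were searched on both strands, and matches are in capitals: the cyclic AMP response element TGACGTCA, the homeodomain core TAATTA, the TATA box TATAAA and the GC box GGGCGG.
Th, chr7:142899946-142900245, minus strand: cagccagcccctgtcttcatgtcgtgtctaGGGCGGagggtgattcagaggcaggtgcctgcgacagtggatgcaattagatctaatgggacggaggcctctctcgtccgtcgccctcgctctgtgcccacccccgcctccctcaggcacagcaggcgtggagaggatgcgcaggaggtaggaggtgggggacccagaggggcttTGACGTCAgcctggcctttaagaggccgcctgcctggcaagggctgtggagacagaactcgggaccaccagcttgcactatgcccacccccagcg
Slc18a2, chr19:59260628-59260927, plus strand: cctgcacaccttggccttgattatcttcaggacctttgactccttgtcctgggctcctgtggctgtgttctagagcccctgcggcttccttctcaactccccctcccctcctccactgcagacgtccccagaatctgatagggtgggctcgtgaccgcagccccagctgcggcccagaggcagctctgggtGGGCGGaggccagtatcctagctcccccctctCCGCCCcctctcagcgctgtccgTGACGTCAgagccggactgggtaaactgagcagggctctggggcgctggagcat
Dbh, chr2:27165257-27165556, plus strand: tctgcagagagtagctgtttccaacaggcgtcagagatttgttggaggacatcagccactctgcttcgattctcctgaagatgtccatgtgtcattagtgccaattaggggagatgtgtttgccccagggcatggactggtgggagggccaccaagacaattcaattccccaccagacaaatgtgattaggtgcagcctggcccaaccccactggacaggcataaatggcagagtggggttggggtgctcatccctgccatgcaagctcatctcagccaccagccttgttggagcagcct
TGACGTCA began 45 bases before the start of *Th* and 4 bases before that of *Slc18a2*, and 1.79% of 32851 RefSeq windows hold it. GGGCGG, held by 35.7% of windows, began 220 bases before the start of *Th*, and 59 and 27 bases before that of *Slc18a2*, the nearer match reading as its complement. The *Dbh* window held none of the motifs. Of the windows not shown, 1 of the 2 of *Ddc* held TATAAA (13.6% of windows) and that of *Maoa* held GGGCGG, while TAATTA (5.29% of windows) was in none. A match is a run of letters, and occupancy of these windows was not measured.

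Between the treatments, *Slc6a2* and *Dbh* fell in DSP-4 TRAP to 36.2% and 42.0% of their saline TRAP means. *Th* stood at 56.1% with no overlap between libraries, although it did not pass the FDR threshold. *Ddc*, the enzyme between *Th* and *Dbh*, stood at 96.1% and *Maob* at 110%, while *Slc18a2* (83.95%), *Maoa* (77.1%) and *Cyb561* (73.6%) lay between. With edgeR's quasi-likelihood test, 2 of the 8 genes were called lower and 0 higher at an FDR under 0.1, against 0.0250% of all 12009 genes called lower. At an unadjusted p under 0.05, 4 of the 8 were lower and 0 higher, against 1.26% and 0.625% of all genes. The median log2 fold change was −0.42 over the 8 genes and −0.00025 over all genes, and 7 of the 8 were negative against 50.04% of all.

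*Th*, the rate-limiting enzyme, had 67.6 (lowest), 78.6 (median) and 93.8 CPM (highest) in the 6 DSP-4 TRAP libraries, against 152, 99.6 and 170 CPM in saline TRAP replicates 4, 6 and 12. The DSP-4 libraries were tightly grouped and all below the saline ones, among which replicate 6 was the lowest and lay close to the highest DSP-4 library. The log2 fold change was −0.84 ± 0.17 (SE), with an unadjusted p of 0.000221, rank 4 of all genes, and an edgeR FDR of 0.574. DESeq2 called it at an FDR of 0.0335. Of all genes, 0.566% had every DSP-4 TRAP library below every saline one, and 3 of the 8 did, *Th*, *Dbh* and *Slc6a2*. None of the 8 had every DSP-4 library above every saline one, as 0.716% of all genes did. For each of the 3 the two-sided exact permutation p was 0.0238, the smallest that 84 splits allow.

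*Ddc*, the decarboxylase, had 131, 162 and 184 CPM (lowest, median, highest) in DSP-4 TRAP, against 189, 138 and 174 CPM in saline TRAP replicates 4, 6 and 12. The groups overlapped almost entirely, and 5 of 6 DSP-4 libraries lay within the saline range. Its log2 fold change was −0.07 ± 0.15 (SE, edgeR FDR 0.9998; exact permutation p = 0.714).

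*Dbh*, which converts dopamine to norepinephrine, had 39.9, 51.3 and 81.0 CPM (lowest, median, highest) in DSP-4 TRAP, against 144, 127 and 136 CPM in saline TRAP replicates 4, 6 and 12. Replicate 2 was the lowest and replicate 9 the highest DSP-4 library, at 59.7% of the saline mean. The log2 fold change was −1.26 ± 0.20 (SE), with an edgeR FDR of 0.0928 and rank 2 of all genes by p. The call was kept without DSP-4 replicate 2 (FDR 0.0205) or 9 (0.0360), and was lost without any other single library of either treatment (0.200 to 0.663) and with library totals as the only scaling (0.113). Its log2 fold change stayed between −1.37 and −1.17 in these omissions.

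*Slc18a2*, the vesicle loader, had 108, 151 and 233 CPM (lowest, median, highest) in DSP-4 TRAP, against 185, 190 and 193 CPM in saline TRAP replicates 4, 6 and 12. In 5 of 6 DSP-4 libraries it was below every saline library, and in replicate 2 it was above every one of them. The saline libraries differed by little, so that the spread came from the DSP-4 group. On the log2 scale the fold change was −0.26 ± 0.19 (SE, edgeR FDR 0.9998; exact permutation p = 0.214). Without DSP-4 replicate 2 the mean log2 difference was −0.41, with an exact permutation p of 0.0357, the smallest for 5 against 3 libraries.

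*Cyb561*, the vesicle electron carrier, was also highest in replicate 2 of the DSP-4 TRAP libraries. That replicate was no outlier by Dixon's test for *Cyb561* (gap of 0.518 of the group's range, critical value 0.625) or *Slc18a2* (0.371). *Cyb561* had 67.6, 82.9 and 139 CPM (lowest, median, highest) in DSP-4 TRAP, against 115, 113 and 137 CPM in saline TRAP replicates 4, 6 and 12. The value of 139 CPM was that of replicate 2, and the other 5 DSP-4 libraries were below the saline range. Its fitted log2 fold change was −0.45 ± 0.20 (SE), with an unadjusted p of 0.0433 and an edgeR FDR of 0.9998. With all libraries the exact permutation p was 0.119. Without replicate 2 the mean log2 difference was −0.62 (exact permutation p = 0.0357, the smallest possible). Of the exonic bases of *Cyb561*, 10.3% overlap the gene Gm9910, and of those of *Slc18a2* 2.12% overlap Gm29261. Whether counting used the strand is not given in the sources used here, so reads there cannot be assigned with certainty.

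*Slc6a2*, the reuptake transporter and the entry route of DSP-4, had 27.7, 41.3 and 73.8 CPM (lowest, median, highest) in DSP-4 TRAP, against 126, 118 and 128 CPM in saline TRAP replicates 4, 6 and 12. Replicate 7 was the lowest and replicate 2 the highest DSP-4 library, and the saline libraries were nearly equal. The log2 fold change was −1.48 ± 0.24 (SE), with an edgeR FDR of 0.0928 and rank 3 of all genes by p. The call was kept without DSP-4 replicate 2 (FDR 0.00149) or without replicates 2 and 3 together (0.00329), and was lost without any other single library of either treatment (0.176 to 0.663), with library totals alone (0.113) and with size factors of the RLE kind (0.103). Its log2 fold change stayed between −1.51 and −1.37 where the call was lost. Saline samples had been kept by the authors only where TRAP enriched *Slc6a2* past a set minimum, a choice that bears on its saline level. The methods describe no such removal of DSP-4 samples. The part of this choice in the saline levels of other genes retrieved by TRAP, *Dbh* and *Th* among them, was not tested. The transgene also carries *Slc6a2* sequence, and whether it adds reads to the gene was not tested.

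*Maoa* and *Maob*, whose products break norepinephrine down, differed from each other. *Maoa* had 61.0, 92.9 and 118 CPM (lowest, median, highest) in DSP-4 TRAP, against 146, 100.4 and 118 CPM in saline TRAP replicates 4, 6 and 12, and 4 of 6 DSP-4 libraries lay below the saline range. *Maob* had 41.9, 51.4 and 71.8 CPM in DSP-4 TRAP, against 50.04, 41.0 and 57.7 CPM in saline TRAP, with 2 DSP-4 libraries above the saline range. The log2 fold change was −0.38 ± 0.20 (SE) for *Maoa* and 0.13 ± 0.19 for *Maob*, and neither passed (edgeR FDR 0.9998 for each; exact permutation p = 0.0952 and 0.548). The 2 genes lie tail to tail on chromosome X, 21463 bases apart.

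**Figure D1:**
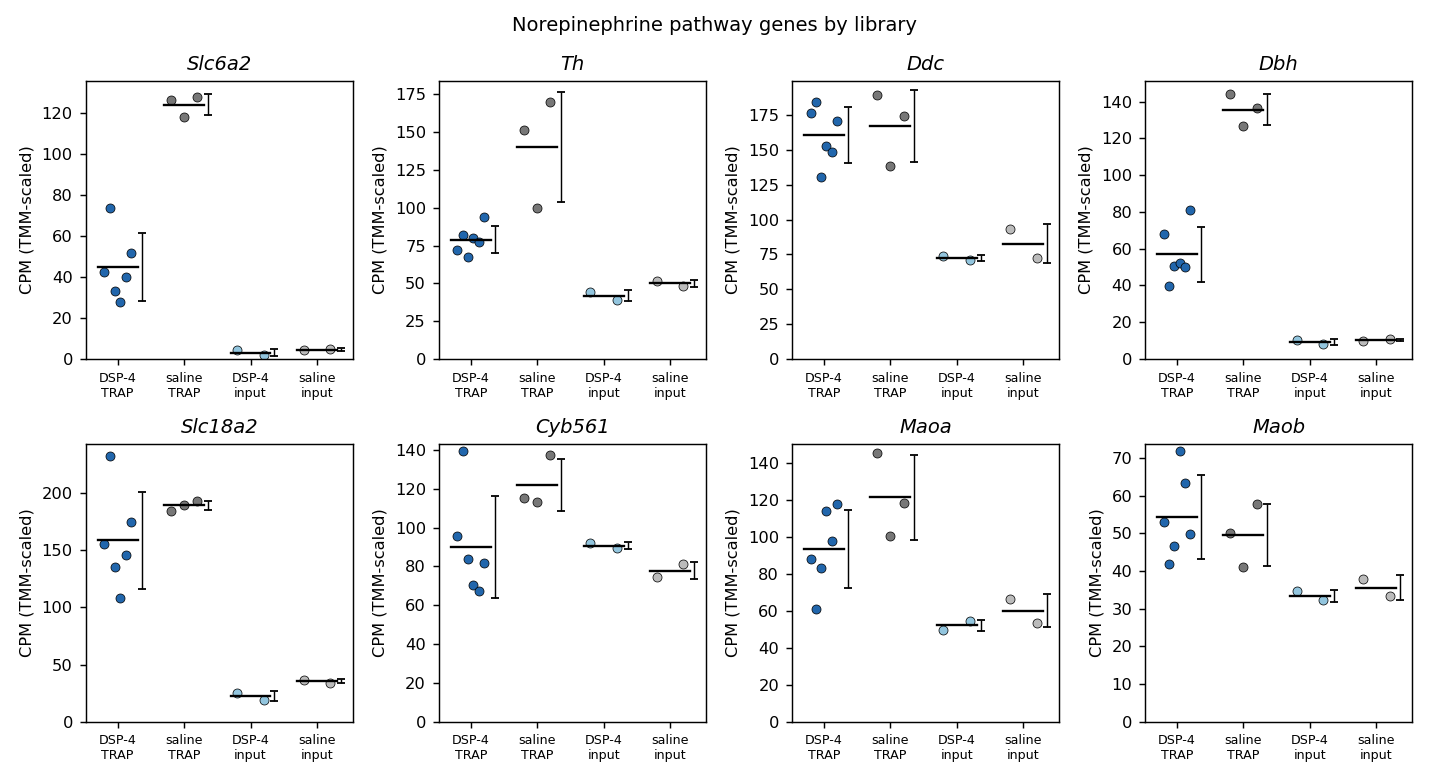
TMM-scaled CPM of each of the 8 genes in every library, with DSP-4 TRAP, saline TRAP, DSP-4 input and saline input from left to right; points are libraries, horizontal lines are group means and the bars beside them are ± 1 SD. The DSP-4 TRAP points of *Slc6a2*, *Th* and *Dbh* all lie below the saline TRAP points, and those of *Ddc* and *Maob* overlap them.

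Markers of other cells were measured beside these values. Summed over 5 measured serotonergic markers, the level was 105 to 197 CPM in DSP-4 TRAP and 147 to 186 CPM in saline TRAP, and 0 of 5 were called. *Tph2*, which commits tryptophan to serotonin, had 60.6 to 127 CPM in DSP-4 TRAP and 83.9 to 122 CPM in saline TRAP. The 6 oligodendrocyte markers summed to 5466 to 11652 CPM in DSP-4 TRAP and 6308 to 6572 CPM in saline TRAP, the 7 astrocyte markers to 1703 to 2365 CPM in DSP-4 TRAP and 1899 to 1952 CPM in saline TRAP, and the 6 microglia markers to 156 to 273 CPM in DSP-4 TRAP and 147 to 161 CPM in saline TRAP. The 3 endothelial and pericyte markers summed to 27.5 to 50.1 CPM in DSP-4 TRAP and 23.1 to 53.7 CPM in saline TRAP, and the 3 cholinergic markers to 17.2 to 49.8 CPM in DSP-4 TRAP and 40.0 to 47.8 CPM in saline TRAP. In these lists 0 markers were called between treatments, and 1 value was at 0, that of *Chat* in DSP-4 TRAP replicate 3. The dopamine transporter gene *Slc6a3*, outside these lists, averaged 49.7 CPM in DSP-4 TRAP and 49.9 CPM in saline TRAP and was not called either. The part of these cells in the levels of *Ddc*, *Slc18a2* and *Maob* was not tested. Nor was that of dopamine neurons in the levels of *Th*, *Ddc* and *Slc18a2* or in the ratios with them.

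Whether the pathway was retrieved by TRAP was asked next, by comparing TRAP with input within each treatment over all 13 libraries. In DSP-4 mice 7 of the 8 genes were higher in TRAP than in input, against 27.3% of all genes, and in saline mice also 7 of 8, against 19.5%. None of the 8 was lower, where 23.8% of all genes were in DSP-4 mice and 15.7% in saline mice. The gene that was not called was *Cyb561* in DSP-4 mice and *Maob* in saline mice. The median log2 enrichment of the 8 genes was 1.03 in DSP-4 mice and 1.25 in saline mice, and that of all genes was −0.01 in DSP-4 mice and −0.02 in saline mice.

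In input, *Slc6a2* had 4.52 and 1.83 CPM in DSP-4 replicates 2 and 7, against 4.19 and 5.06 CPM in saline replicates 5 and 12. Each DSP-4 TRAP library divided by the mean DSP-4 input held 8.72- to 23.3-fold more *Slc6a2*, and each saline TRAP library 25.6- to 27.6-fold more than saline input. The fitted log2 enrichment was 3.81 ± 0.42 in DSP-4 mice and 4.75 ± 0.44 in saline mice (SE; edgeR FDR 9.13e-06 and 4.77e-05). It was the largest of the 8 genes in both treatments, and saline samples had been kept by their *Slc6a2* enrichment.

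*Dbh* had 10.6 and 8.22 CPM in DSP-4 input, against 9.98 and 10.7 CPM in saline input. It was enriched 4.24- to 8.60-fold in DSP-4 TRAP libraries and 12.3- to 13.9-fold in saline TRAP libraries, ranges that did not meet. The fitted log2 enrichment was 2.60 ± 0.27 in DSP-4 mice and 3.71 ± 0.29 in saline mice (SE; edgeR FDR 5.72e-06 and 1.25e-05). In saline mice it had the smallest p of all genes.

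*Slc18a2* had 25.5 and 19.3 CPM in DSP-4 input, against 36.6 and 34.2 CPM in saline input, where the saline libraries were the higher ones. Its log2 enrichment was 2.83 ± 0.26 in DSP-4 mice and 2.42 ± 0.27 in saline mice (SE; edgeR FDR 2.86e-06 and 8.61e-05). *Th* and *Ddc* were retrieved less. *Th* had 44.3 and 39.3 CPM in DSP-4 input, against 51.6 and 48.5 CPM in saline input, with a log2 enrichment of 0.91 ± 0.20 in DSP-4 mice and 1.49 ± 0.22 in saline mice (SE; edgeR FDR 0.00173 and 0.000371). *Ddc* had 73.9 and 71.2 CPM in DSP-4 input, against 92.9 and 72.8 CPM in saline input, with a log2 enrichment of 1.15 ± 0.18 in DSP-4 mice and 1.01 ± 0.20 in saline mice (SE; edgeR FDR 0.000153 and 0.00188).

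*Cyb561* had 92.05 and 89.3 CPM in DSP-4 input, against 74.6 and 81.1 CPM in saline input. Its log2 enrichment was −0.01 ± 0.22 in DSP-4 mice (SE; edgeR FDR 0.967) and 0.65 ± 0.25 in saline mice (FDR 0.0717). The saline call was lost without saline TRAP replicate 4 (FDR 0.103) or 12 (0.187) or saline input replicate 5 (0.280) or 12 (0.196). *Maoa* had 49.8 and 54.4 CPM in DSP-4 input, against 66.4 and 53.7 CPM in saline input, with a log2 enrichment of 0.84 ± 0.23 in DSP-4 mice and 1.02 ± 0.25 in saline mice (SE; edgeR FDR 0.00791 and 0.00828), the saline call being lost without saline input replicate 12 (FDR 0.107). *Maob* had 34.6 and 32.2 CPM in DSP-4 input, against 37.9 and 33.3 CPM in saline input, with a log2 enrichment of 0.70 ± 0.21 in DSP-4 mice and 0.48 ± 0.23 in saline mice (SE; edgeR FDR 0.0150 and 0.143). The DSP-4 call of *Maob* was lost without DSP-4 input replicate 7 (FDR 0.132), and in saline mice *Maob* passed without DSP-4 TRAP replicate 2 (0.0837), without replicates 2 and 3 together (0.0614) and with library totals alone (0.0910).

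TRAP and input libraries labelled with the same number were taken to share one homogenate, as the methods draw both from each replicate. With this number as a block in edgeR the call of *Maoa* was lost in DSP-4 mice (FDR 0.110) and saline mice (0.113), that of *Maob* in DSP-4 mice (0.107) and that of *Cyb561* in saline mice (0.328). Under the block these log2 enrichments were 0.68 in DSP-4 mice and 1.14 in saline mice for *Maoa*, 0.72 in DSP-4 mice for *Maob* and 0.76 in saline mice for *Cyb561*. In the 3 homogenates taken to have both libraries, the TRAP to input ratio of *Slc6a2* was 16.4 and 15.1 in DSP-4 replicates 2 and 7, against 25.2 in saline replicate 12. That of *Dbh* was 3.77 and 6.34 with DSP-4, against 12.8 with saline, and that of *Th* was 1.85 and 2.03 with DSP-4, against 3.50 with saline. That of *Cyb561* was 1.51 and 0.788 with DSP-4, against 1.69 with saline, and that of *Maoa* was 1.22 and 2.10 with DSP-4, against 2.20 with saline. For these 5 genes both DSP-4 homogenates gave a lower ratio than the single saline one, by little for *Maoa*. For the other 3 the saline ratio lay in between, at 2.49 and 2.15 with DSP-4, against 2.39 with saline, for *Ddc*. The ratio of *Slc18a2* was 9.13 and 5.61 with DSP-4, against 5.65 with saline, and that of *Maob* was 1.21 and 2.23 with DSP-4, against 1.73 with saline.

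**Figure D2:**
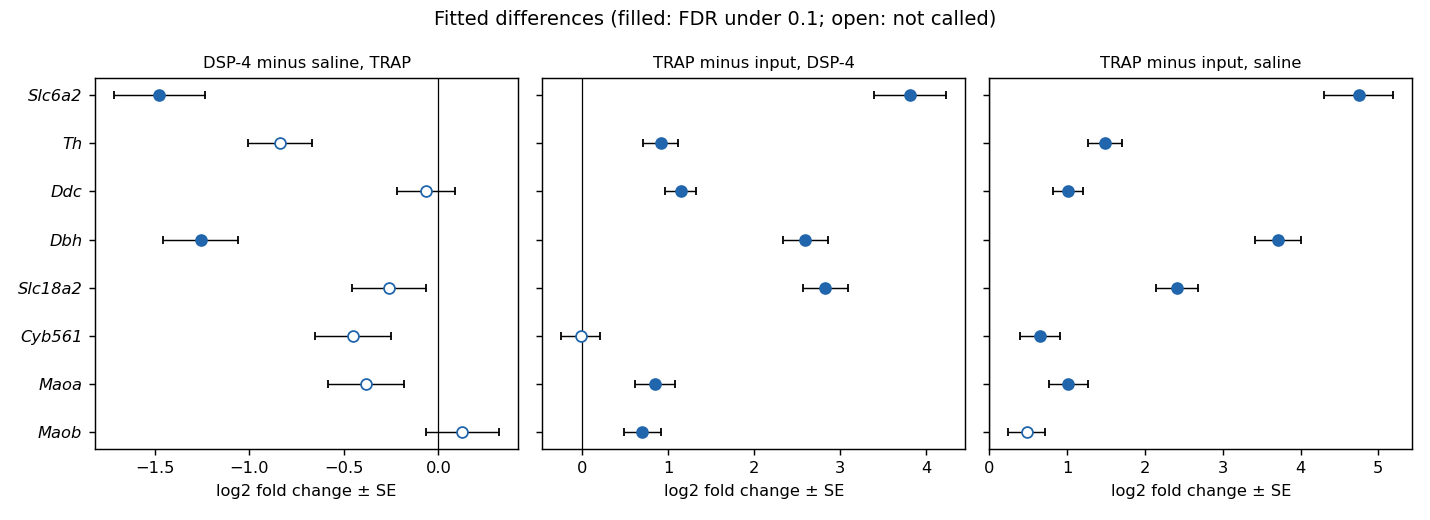
Fitted log2 fold changes of the 8 genes with ± 1 SE, from edgeR, for DSP-4 minus saline in TRAP, for TRAP minus input in DSP-4 mice and for TRAP minus input in saline mice. Filled points passed an FDR of 0.1; *Slc6a2* and *Dbh* are the 2 filled points between treatments, at −1.48 and −1.26, and 7 of 8 points are filled in each comparison of TRAP with input.

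Over whole hindbrain input, DSP-4 against saline gave 0 calls among the 8 genes, where 0% of all genes were called by edgeR and 0 genes by DESeq2 or limma. At an unadjusted p under 0.05, 289 genes (2.41%) were lower and 17 higher, and *Slc18a2* was the one of the 8 among them, with a log2 fold change of −0.66 ± 0.27 (SE, unadjusted p of 0.0278, edgeR FDR above 0.99). *Slc6a2* was at −0.53 ± 0.43 and the other 6 genes between −0.26 and 0.22. The *Slc6a2* value rested on the DSP-4 input libraries, which had 4.52 CPM (106 counts) in replicate 2 and 1.83 CPM (39 counts) in replicate 7, against 4.19 and 5.06 CPM in saline input. It was −1.32 without DSP-4 input replicate 2 and −0.03 without DSP-4 input replicate 7. With 2 libraries per treatment, 7 of the 8 were negative, against 54.1% of all genes.

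The difference between the DSP-4 and the saline enrichment was tested directly in the same fit, and 0 of the 8 genes and 0% of all genes passed in edgeR, with 0 genes in DESeq2 and limma. At an unadjusted p under 0.05, 57 genes (0.475%) had a lower and 264 (2.20%) a higher enrichment in DSP-4 mice. *Dbh* was the one of the 8 among them, at −1.12 ± 0.34 on the log2 scale (SE, unadjusted p of 0.00467, edgeR FDR 0.9997), the 18th smallest p of all genes. *Slc6a2* was at −0.93 ± 0.51, *Cyb561* at −0.66 ± 0.34 and *Th* at −0.57 ± 0.28, with unadjusted edgeR p of 0.0840, 0.0658 and 0.0591. The *Slc6a2* difference was −0.14 without DSP-4 input replicate 2 and −1.43 without DSP-4 input replicate 7, so a single homogenate library set its size. *Slc18a2* (0.41 ± 0.33), *Maob* (0.23 ± 0.31) and *Ddc* (0.13 ± 0.26) were positive, and *Maoa* was at −0.17 ± 0.33. Among all genes the block by homogenate brought the count of calls to 1.

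Ratios of 2 genes within a library, which depend neither on library scaling nor, between treatments, on gene length, set the steps of the pathway against each other. Of 10 ratios tested, 5 had an exact permutation p under 0.05 and 4 had groups that did not overlap. None passed 0.05 after Benjamini-Hochberg adjustment over the 10, the smallest adjusted value being 0.0595, and 6 against 3 libraries cannot give a raw p under 0.0238. Each of the 4 ratios without overlap holds *Slc6a2*, *Dbh* or *Th*, whose own libraries did not overlap, so it partly restates the single-gene results. The share of all gene pairs without overlap was not computed, and the genes of the ratios were chosen with earlier results known.

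Reuptake against storage gave the widest separation. Saline samples had been kept by their *Slc6a2* enrichment, so this choice bears on the saline values and p of every ratio with *Slc6a2*. *Slc6a2*/*Slc18a2* averaged 0.277 ± 0.0264 in DSP-4 TRAP (SD, n = 6, 0.245 to 0.318) and 0.656 ± 0.0311 in saline TRAP (SD, n = 3, 0.623 to 0.685). The DSP-4 libraries kept within a narrow band although the level of either gene varied widely among them, and the log2 difference was −1.25 (exact permutation p = 0.0238, adjusted 0.0595). In input the ratio averaged 0.136 with DSP-4 and 0.131 with saline. The DSP-4 values, 0.177 in replicate 2 and 0.0949 in replicate 7, lay on either side of the saline ones (0.114 and 0.148). *Slc6a2* had 39 counts in DSP-4 input replicate 7, so a change in input is neither shown nor excluded.

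Within synthesis, the step from *Ddc* to *Dbh* and the step from *Th* to *Ddc* both separated the libraries of the treatments. *Dbh*/*Ddc* averaged 0.357 ± 0.0841 in DSP-4 TRAP (SD, n = 6, 0.217 to 0.473) and 0.820 ± 0.0832 in saline TRAP (SD, n = 3, 0.761 to 0.915), a log2 difference of −1.23. *Ddc*/*Th* averaged 2.05 ± 0.243 in DSP-4 TRAP (SD, n = 6, 1.82 to 2.44) and 1.22 ± 0.184 in saline TRAP (SD, n = 3, 1.02 to 1.39), a log2 difference of 0.75. In both ratios all 6 DSP-4 libraries lay on one side of all 3 saline libraries (exact permutation p = 0.0238, adjusted 0.0595, for each). The log2 fold change of *Ddc* alone was −0.07, so both ratios largely restate those of *Dbh* (−1.26) and *Th* (−0.84). In input, *Dbh*/*Ddc* averaged 0.130 with DSP-4 and 0.127 with saline, and *Ddc*/*Th* 1.74 with DSP-4 and 1.65 with saline. *Dbh*/*Th* averaged 0.723 with DSP-4 and 1.01 with saline in TRAP, with overlapping libraries (log2 difference −0.48, exact permutation p = 0.0952).

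*Cyb561*/*Dbh*, the electron carrier against the enzyme it serves, averaged 1.71 ± 0.896 in DSP-4 TRAP (SD, n = 6, 1.01 to 3.49) and 0.901 ± 0.103 in saline TRAP (SD, n = 3, 0.802 to 1.01). The groups did not overlap but nearly touched, and replicate 2 gave the DSP-4 maximum (log2 difference 0.81, exact permutation p = 0.0238, adjusted 0.0595). The log2 difference was 0.58 without replicate 2 (exact permutation p = 0.0357) and 0.50 without replicates 2 and 3 together (exact permutation p = 0.0571), each p the smallest possible. *Maoa*/*Maob* averaged 1.73 ± 0.329 in DSP-4 TRAP and 2.47 ± 0.431 in saline TRAP (SD, n = 6 and 3), with 5 of 6 DSP-4 libraries below the saline range (log2 difference −0.51, exact permutation p = 0.0476, adjusted 0.0952). Its p was 0.0357 without DSP-4 replicate 9 and exceeded 0.05 when any other single library was left out (exact permutation p = 0.0714 to 0.143).

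The remaining ratios had raw p over 0.05. *Slc6a2*/*Th* averaged 0.566 in DSP-4 TRAP and 0.924 in saline TRAP (log2 difference −0.74, exact permutation p = 0.0714), *Slc18a2*/*Th* 2.02 with DSP-4 and 1.42 with saline (0.51, p = 0.0952) and *Maoa*/*Th* 1.19 with DSP-4 and 0.888 with saline (0.41, p = 0.167). *Slc6a2*/*Dbh* averaged 0.850 in DSP-4 TRAP and 0.916 in saline TRAP, a log2 difference of −0.25 (exact permutation p = 0.571). Without DSP-4 replicate 2 the log2 differences were −0.50 for *Slc6a2*/*Dbh*, −0.88 for *Slc6a2*/*Th* and 0.54 for *Maoa*/*Th*, each with an exact permutation p of 0.0357.

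**Figure D3:**
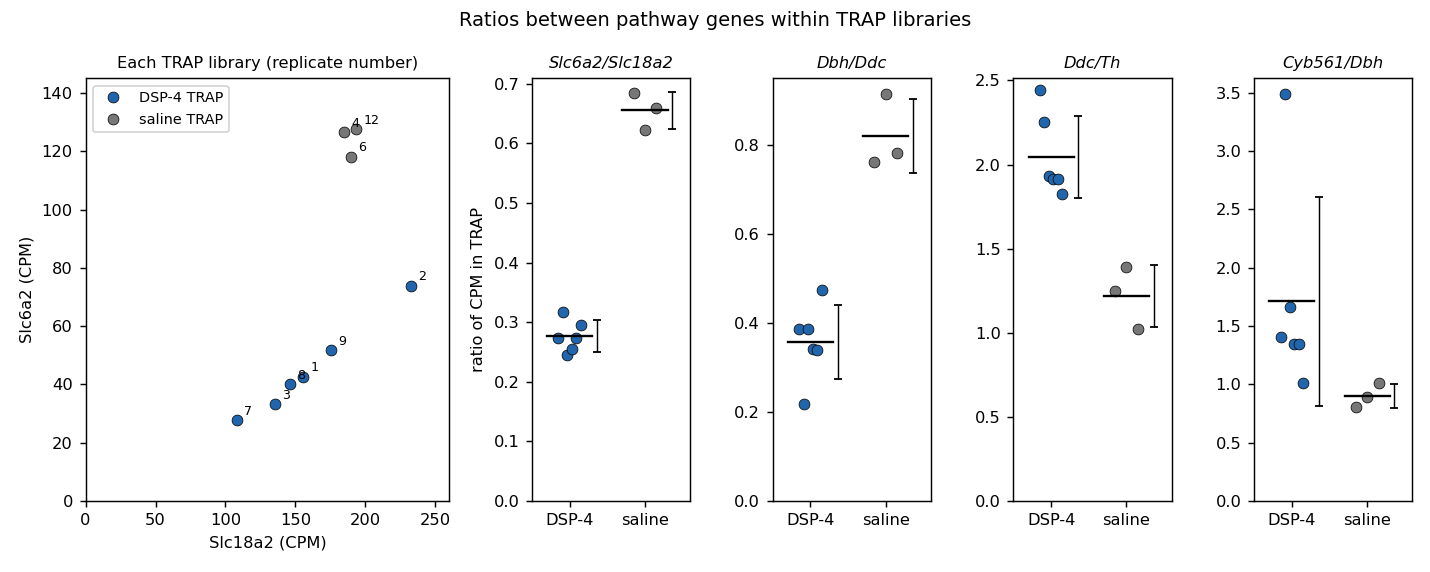
Left, *Slc6a2* against *Slc18a2* (TMM-scaled CPM) in each TRAP library, numbered by replicate, and right, 4 ratios within TRAP libraries with DSP-4 left of saline; points are libraries, lines are means and bars ± 1 SD. The *Slc6a2*/*Slc18a2* points lie between 0.245 and 0.318 in DSP-4 TRAP and between 0.623 and 0.685 in saline TRAP.

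Within DSP-4 TRAP, the log2 CPM of each of the other 7 genes was correlated with that of *Slc6a2* across 6 libraries. *Slc18a2* followed it, with Pearson's r = 0.99 (exact permutation p = 0.00139, adjusted over the 7 genes 0.00972) and Spearman's rho = 1 (exact permutation p = 0.00278, adjusted 0.0194). Without replicates 2 and 7, the libraries farthest from the median of *Slc6a2*, r was 0.99 over the remaining 4. No other gene passed. *Cyb561* had r = 0.80 and rho = 0.60 (exact permutation p = 0.0569 and 0.242, adjusted 0.163 and 0.416), and r was 0.07 without those libraries, so its relation rested on them. For *Ddc* r was 0.75 and rho 0.77 (exact permutation p = 0.0861 and 0.103), for *Th* 0.46 and 0.54 (0.354 and 0.297) and for *Dbh* −0.12 and −0.09 (0.836 and 0.919). For *Maoa* r was −0.60 and rho −0.26 (exact permutation p = 0.213 and 0.658) and for *Maob* −0.73 and −0.66 (0.0931 and 0.175). Without replicates 2 and 7, r was 0.85 for *Ddc*, 0.91 for *Th*, 0.89 for *Dbh*, 0.89 for *Maoa* and 0.11 for *Maob*, so that the values for *Dbh*, *Maoa* and *Maob* changed sign.

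Levels of different genes were compared after division by exonic length (GENCODE vM21, GRCm38), as CPM per kb. In DSP-4 TRAP the order was *Ddc* (35.998), *Th* (33.3), *Slc18a2* (30.4), *Cyb561* (24.6), *Maoa* (22.5), *Dbh* (21.2), *Maob* (19.5) and *Slc6a2* (7.13). In saline TRAP it was *Th* (59.4), *Dbh* (50.4), *Ddc* (37.5), *Slc18a2* (36.2), *Cyb561* (33.4), *Maoa* (29.1), *Slc6a2* (19.7) and *Maob* (17.8). *Dbh* was thus the sixth gene with DSP-4 and the second with saline. Neighbours in these orders had overlapping library ranges except *Maob* and *Slc6a2* in DSP-4 TRAP, and *Dbh* and *Ddc*, and *Maoa* and *Slc6a2*, in saline TRAP.

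In DSP-4 input the per-length order was *Cyb561* (24.8 CPM per kb), *Th* (17.7), *Ddc* (16.3), *Maoa* (12.5), *Maob* (11.98), *Slc18a2* (4.29), *Dbh* (3.50) and *Slc6a2* (0.505). In saline input it was *Cyb561* (21.3), *Th* (21.2), *Ddc* (18.6), *Maoa* (14.4), *Maob* (12.8), *Slc18a2* (6.78), *Dbh* (3.84) and *Slc6a2* (0.735). The order of genes was the same in both, with overlapping ranges between *Maoa* and *Maob* in each, between *Slc18a2* and *Dbh* in DSP-4 input, and between *Cyb561* and *Th*, and *Th* and *Ddc*, in saline input. *Slc6a2* and *Dbh* stood last in the homogenate, and *Cyb561* first.

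**Figure D4:**
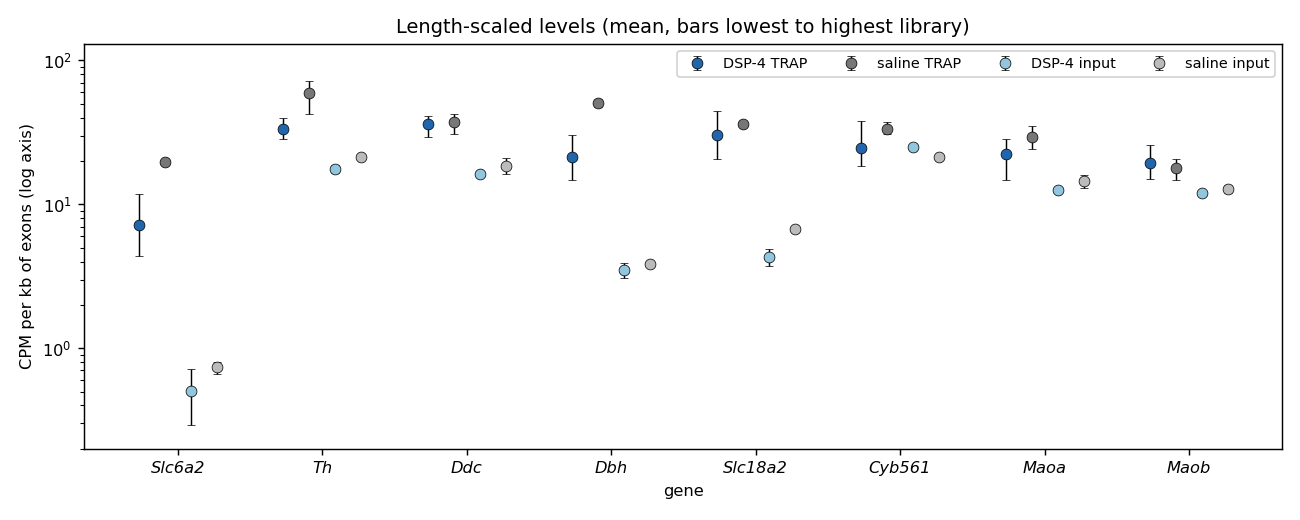
Mean CPM per kb of exonic length on a log axis for the 8 genes in DSP-4 TRAP, saline TRAP, DSP-4 input and saline input, with bars from the lowest to the highest library. *Slc6a2* has the lowest level in DSP-4 TRAP (7.13), DSP-4 input (0.505) and saline input (0.735), and is above *Maob* in saline TRAP (19.7 against 17.8).

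Other genes of norepinephrine metabolism were read from a list of 31, of which 25 were measured. Between DSP-4 and saline in TRAP 0 of the 25 passed, and their median log2 fold change was −0.01. The 4 smallest p were all of genes that make or recycle tetrahydrobiopterin, the cofactor of *Th*. *Pcbd1*, which recycles the cofactor, had 70.8, 82.4 and 93.7 CPM (lowest, median, highest) in DSP-4 TRAP, against 141, 128 and 112 CPM in saline TRAP replicates 4, 6 and 12. All DSP-4 values were below the saline ones, with a log2 fold change of −0.62 ± 0.14 (SE, unadjusted p of 0.000614, edgeR FDR 0.9998). *Gch1*, the first enzyme of cofactor synthesis, had 16.9, 22.5 and 29.6 CPM in DSP-4 TRAP, against 40.8, 27.4 and 28.9 CPM in saline TRAP, with overlap (−0.48 ± 0.21, unadjusted p of 0.0369, edgeR FDR 0.9998). *Pcbd2* (−0.50 ± 0.31) and *Pts* (−0.27 ± 0.17) followed. The serotonin and dopamine transporters *Slc6a4* and *Slc6a3* were at −0.10 ± 0.21 and −0.01 ± 0.26.

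In TRAP against input, 7 of the 25 were higher and 5 lower in DSP-4 mice (27.3% and 23.8% of all genes), and 6 were higher and 2 lower in saline mice (19.5% and 15.7% of all genes). Higher in both were *Gch1* (log2 enrichment 0.83 in DSP-4 mice and 1.23 in saline mice), *Pcbd1* (0.34 in DSP-4, 1.05 in saline), the ascorbate transporter *Slc23a2* (0.79 in DSP-4, 1.07 in saline), *Slc6a3* (0.90 in DSP-4, 0.76 in saline), the aldose reductase *Akr1b3* (1.37 in DSP-4, 1.29 in saline) and *Tph2* (1.46 in DSP-4, 1.05 in saline). *Adh5*, an alcohol dehydrogenase, was higher in DSP-4 mice (0.88). *Aldh7a1*, an aldehyde dehydrogenase, was lower in both (−0.49 in DSP-4, −0.56 in saline). *Gchfr*, which binds and regulates *Gch1*, *Pcbd2* and the low-affinity monoamine transporter *Slc29a4* were lower in DSP-4 mice (−1.35, −1.11 and −0.95). In input against input, and in the difference of enrichments, 0 of the 25 passed in edgeR, and *Pcbd1* had the smallest p of them for the difference, at −0.71 ± 0.23 (unadjusted p of 0.00741, edgeR FDR 0.9997).

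The genes most like each of the 8 were taken as the 3 with the highest Pearson r of log2 CPM over the 13 libraries, a description in which libraries share fraction and treatment. *Slc6a2* was followed most closely by the vesicle protein gene *Slc10a4* (r = 0.98), *Slc18a2* (0.97) and *Dbh* (0.97), *Th* by the neuropeptide gene *Gal* (0.94), *Txndc16* (0.93) and *Slc10a4* (0.93), and *Dbh* by the phosphodiesterase gene *Pde4b* (0.98), *Calca* (0.97) and *Slc6a2* (0.97). *Slc18a2* was nearest to *Hsp90b1* (0.99), *Apc* (0.98) and *Gm17066* (0.98), and *Ddc* to *Akr1b3* (0.98), *Dgkb* (0.98) and *Marcks* (0.97). *Cyb561* had lower values, with *Rimbp2* (0.92), *Gpx3* (0.86) and *Ppp1r12b* (0.86). *Maoa* was nearest to *Suv420h1* (0.95), *Dclk1* (0.95) and *Cntln* (0.94), and *Maob* to *Paics* (0.97), *Tcp11l2* (0.96) and *Mcm2* (0.96). Over the 9 TRAP libraries alone, r with *Slc6a2* was 0.90 for *Slc10a4*, 0.80 for *Slc18a2* and 0.79 for *Dbh*, and r with *Th* was 0.90 for *Gal*.

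On GRCm38 (GENCODE vM21) the genes lie at chr7:142892752-142931128 (*Th*, minus strand), chr11:11814101-11898144 (*Ddc*, minus), chr2:27165233-27183200 (*Dbh*, plus), chr19:59260896-59296012 (*Slc18a2*, plus), chr11:105933702-105953336 (*Cyb561*, minus), chr8:92960079-93001667 (*Slc6a2*, plus), chrX:16619698-16687818 (*Maoa*, plus) and chrX:16709282-16817366 (*Maob*, minus), and all are annotated as protein-coding. The count table holds 1 value per gene, so isoforms were not separated.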

How the data were processed

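The 13 libraries hold TRAP or input RNA of pooled hindbrains and were grouped by treatment and fraction from the sample labels. STAR (alignment to mm10) and featureCounts were used by the authors, and their deposited table gives raw counts for 12009 genes, with 0 columns left unused and 21 identifiers that are plain numbers. The table's title calls it filtered and normalized, but its values are whole numbers whose totals differ between libraries, and they were treated as raw counts. Tool versions, the annotation and the use of strand were not given in the sources used here. No gene had a mean count under 78.4, so the table had been filtered on low counts.

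Counts were tested with edgeR 4.0.16 (quasi-likelihood, TMM, two-sided, Benjamini-Hochberg over all genes, FDR under 0.1) in R 4.3.3, with limma 3.58.1 and DESeq2 1.42.0 as alternatives. DSP-4 and saline TRAP were compared over 9 libraries without covariates, and the other comparisons in 1 fit of 4 groups over 13 libraries. Comparisons share libraries with each other, and their values are given side by side. Single genes and ratios were tested by exact permutation (84 splits, two-sided by doubling the smaller tail) on log2 CPM with a prior count of 1. Co-variation was tested by exact permutation over 720 orders, two-sided by the absolute value of the coefficient, without doubling. Both used scipy 1.17.1 (Python 3.11.15, numpy 2.4.6, pandas 2.3.3, matplotlib 3.10.9). P-values over TRAP libraries measure the spread between pools of 2 mice. The edgeR fit was tried on simulated counts with planted changes larger than those called between treatments in TRAP. Its power for smaller changes was not measured.

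The study's methods draw TRAP and input from each homogenized replicate, and that equal numbers mark one homogenate is inferred from the labels. For equal numbers, deviations from group means had r of 0.181 and 0.266 for DSP-4 replicates 2 and 7 and 0.295 for saline replicate 12. Libraries of different number gave values as high (0.382 for saline input 5 with saline TRAP 4, 0.145 and 0.144 for DSP-4 input 2 with DSP-4 TRAP 1 and 8), so these values alone do not show a pairing. With 2 input libraries per treatment these deviations mirror each other. Libraries of a group differed by more than sampling noise (chi-square per gene 24.4 or more), and none was counted as a repeat. DSP-4 TRAP replicates 7, 8 and 9 differed from each other by 24.4 to 29.1, and pairs with replicate 1, 2 or 3 by 61.2 to 195. Saline TRAP replicates 4 and 6 differed by 37.9, and from replicate 12 by 83.8 and 110. What sets these libraries apart, and its part in the results, was not tested.

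The text names the 8 genes in every comparison, those of the wider list that pass or have up to 4 of the smallest p, and 3 genes most like each. Of the wider list, 1 gene is counted but not reported here by name. The 8 genes and all lists were chosen with earlier results of these data known. Promoter windows are RefSeq's on GRCm38.p6.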

Additional observations from a re-analysis of the deposited data

Results flagged for a closer look

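In groups of 4 to 10 libraries, 18 sets of values (the 8 genes and 10 ratios in DSP-4 TRAP) were searched for a library far from its neighbours by Dixon's test, which chance alone meets in about 1 of 20 groups, and 2 were found, both in DSP-4 TRAP replicate 2. Its log2 ratio of *Slc6a2* to *Dbh* was 0.89, with a gap of 0.673 of the group's range (critical value 0.625). Its log2 ratio of *Maoa* to *Th* was −0.42, with a gap of 0.756 of the range. This replicate had the highest *Slc6a2*, *Slc18a2* and *Cyb561* and the lowest *Dbh*, *Maoa* and *Maob* of the 6 libraries. It was also one of the 2 libraries that stood apart over all genes, and the part of that in these ratios was not tested.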

How the results depend on the processing

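No call changed direction. For DSP-4 against saline in TRAP, the genes called numbered 3, and 1 with library totals alone and 5 with DESeq2, and those of the 8 pathway genes called lower numbered 2, and 1 with RLE size factors, 0 with library totals alone and 1 with all 13 libraries in the fit (*Slc6a2* FDR 0.162). DESeq2 called *Slc6a2*, *Dbh* and *Th* lower (FDR 3.94e-05, 3.80e-05 and 0.0335), and limma called *Slc6a2* and *Dbh* (FDR 0.0821 for each). Leaving out 1 library gave 0 to 3 genes in all and 0 to 2 of the 8. For TRAP against input, leaving out 1 library gave 2100 to 5185 genes in saline mice (4217 with all) and 3678 to 6914 in DSP-4 mice (6135 with all). The replicate block by homogenate gave 1422 genes in saline mice and 1 gene in the difference of enrichments (0 without it), and changed no call among the 8 other than those named beside the results; a random block in limma changed none. Among the 8 genes, exact permutation p under 0.05 was met by 3, by 0 without DSP-4 TRAP replicates 2 and 3 together, where no p under 0.0571 is possible, and by 0 to 5 leaving out 1 library. Among ratios it was met by 5, by 0 without those 2 replicates and by 0 to 7 leaving out 1 library. Without a saline library the smallest possible p is 0.0714, so these counts of 0 say nothing of stability.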
